A study of Mus musculus with 8 samples.

Results

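HOX genes encode homeodomain transcription factors that lie in 4 clusters, HOX A to HOX D, and keep a record of where along the body and limb axes a cell arose. Within each cluster the genes are numbered by paralog group, from group 1 at the anterior end to group 13 at the posterior end, and skin and connective tissue fibroblasts are known to hold their own combination of active HOX genes through adult life. HOX proteins bind DNA together with TALE cofactors of the PBX, MEIS and PKNOX families. Polycomb proteins keep HOX genes silent outside their domain, trithorax proteins keep them active, and retinoic acid induces the anterior genes during development. All genes named Hoxa, Hoxb, Hoxc or Hoxd and a number were taken: 40 rows with 39 symbols of the 53801 gene identifiers in the table, with no use of their values.

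The cells came from MO5 tumors, a B16-derived mouse melanoma that makes ovalbumin, grown under the skin of C57Bl/6 mice that were 8 to 12 weeks old at implantation. Both groups came from tumors of ADAM12-GFP mice, in which a bacterial artificial chromosome carrying Adam12 drives Cre and GFP from 1 transcript, so both carry the same transgene. Live CD45-CD31- cells that were PDGFRα+Pdpn+ were sorted into GFP+ cells (4 libraries) and GFP- cells (4 libraries), and neither group was treated. GFP marks cells in which the transgene is active, and Adam12 itself was read in both groups. By the study's statistical methods n counts mice unless stated otherwise, while the labels do not tie a library to a mouse, and p-values measure the spread between these libraries.

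Libraries held from 883144 reads assigned to genes (GFP- replicate 3) to 31666734 (GFP+ replicate 4). The replicate 1 library of each group had reads in few genes for its depth, 16138 genes at 7868787 reads in GFP- and 16313 genes at 8776925 reads in GFP+, while GFP- replicate 3 had reads in 15414 genes. The sort genes Pdgfra (log2 fold change 1.32 ± 0.17, SE) and Pdpn (0.70 ± 0.21) were higher in GFP+, and Adam12 was higher by 0.75 ± 0.24 (adjusted p = 0.0266, DESeq2). Ptprc, which encodes the CD45 that the sort excluded, ran from 137 to 1703 normalised counts in GFP- and from 119 to 1383 in GFP+. The summed level of 17 melanocyte genes ran from 3178 to 9872 CPM (reads of a gene per 1000000 reads assigned to genes in its library) in GFP- and from 540 to 1476 in GFP+, with 15 lower, 1 (Kit) higher and none at 0 in all libraries. The 10 Schwann cell genes summed to 257 to 501 CPM in GFP- and 128 to 201 in GFP+, with 6 of 8 tested lower, and 10 keratinocyte genes to 8.33 to 27.2 and 3.98 to 6.93. The 22 pan-fibroblast genes summed to 48150 to 89707 CPM in GFP- and 91925 to 92845 in GFP+, without overlap. The leukocyte, endothelial, pericyte and skeletal muscle lists overlapped between groups, with sums of 70.2 to 498 and 66.2 to 362 CPM for 14 leukocyte genes, 140 to 302 and 178 to 296 for 10 endothelial genes, 72.2 to 138 and 62.3 to 158 for 9 pericyte genes, and 3.24 to 11.2 and 3.53 to 15.3 for 10 skeletal muscle genes. In bulk libraries such as these, fewer cells of a type and less RNA per cell cannot be told apart.

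A HOX gene could be read here only where part of its span is not shared with another gene on the same strand. Of 386 protein-coding genes in the table whose whole span lies inside other genes of their strand, 380 (98.45%) had 0 reads in all 8 libraries, against 3355 of 20909 (16.05%) other protein-coding genes. Exons that no other gene's exons overlap did not spare them, since all of these genes had more than 500 such bases. By this measure 8 of the 39 HOX symbols had no base of their own, namely Hoxa3, Hoxa4, Hoxa5, Hoxa6, Hoxc6, Hoxc8, Hoxc9 and Hoxd4, and all 8 had 0 reads. Their 0 is no reading of expression. Hoxa3 shares its span with Gm28308, Hoxa4, Hoxa5 and Hoxa6, and Hoxc5 extends across Hoxc6, Hoxc8, Hoxc9 and part of Hoxc10. Hoxc10 kept 647 of 5098 bases and Hoxd3 526 of 36516, so that their levels are low estimates, and a read given to Hoxc5 can come from any part of the 19568 bases it kept between the other genes. Gene spans were read from GENCODE M21, which may differ in places from the annotation used for counting.

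Sequences from RefSeq (GRCm38.p6) are printed for the cluster miRNAs, which sit among the HOX genes and are known to repress HOX messages, and for the promoters of Hoxd13 and Hoxd8, the HOX D genes with the most reads. The 4 distinct mature sequences of the miR-10 and miR-196 families fall in 2 groups by their seed (bases 2 to 8, in capitals), which is the part that pairs with targets.
mmu-miR-10a-5p: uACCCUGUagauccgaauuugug
mmu-miR-10b-5p: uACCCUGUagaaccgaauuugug
mmu-miR-196a-5p: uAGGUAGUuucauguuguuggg
mmu-miR-196b-5p: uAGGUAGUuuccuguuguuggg
The genes of these miRNAs, Mir10a, Mir10b, Mir196a-1, Mir196a-2 and Mir196b, had 0 reads in all 8 libraries, and so had Mir615. Mir10b, Mir196a-2, Mir196b and Mir615 lie wholly within the span of a HOX gene or other gene of their strand and could not be counted. Counts at these loci are of precursor transcripts, and the mature miRNAs were not measured.

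Promoters are given from 250 bases before to 50 bases after the start, with CG dinucleotides in capitals. Hoxd13 (group 13, at chr2:74667975-74668274, plus strand), the single HOX gene called between the groups, held 37 CG, a number that 5.58% of the 32851 promoters in the table reach. Hoxd8 (group 8, at chr2:74704365-74704664, plus strand), read in every library of both groups, held 6, which 56.44% reach.
Hoxd13: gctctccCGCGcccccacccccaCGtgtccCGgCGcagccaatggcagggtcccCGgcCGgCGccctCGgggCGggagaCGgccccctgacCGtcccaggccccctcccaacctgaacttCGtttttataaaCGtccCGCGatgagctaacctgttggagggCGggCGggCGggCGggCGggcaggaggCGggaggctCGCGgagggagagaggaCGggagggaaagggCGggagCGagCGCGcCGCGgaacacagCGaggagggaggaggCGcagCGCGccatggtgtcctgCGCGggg
Hoxd8: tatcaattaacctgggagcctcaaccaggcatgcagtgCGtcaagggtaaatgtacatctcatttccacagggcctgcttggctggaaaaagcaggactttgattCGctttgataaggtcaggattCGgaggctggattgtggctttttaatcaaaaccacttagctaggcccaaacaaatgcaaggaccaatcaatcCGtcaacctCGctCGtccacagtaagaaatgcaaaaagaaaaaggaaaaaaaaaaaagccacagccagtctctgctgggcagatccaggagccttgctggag
Over the 24 HOX promoters in the table, which belong to 22 of the 39 genes, the CG number ran from 4 to 45 with a median of 14.5, against a median of 7 over all promoters. The letters TATAAA, searched on both strands, were found in 4 HOX promoters, Hoxd13 among them, and in 13.62% of all promoters. The 2 matches in Hoxd13 lie on opposite strands and overlap at the same place. The letters TGATTNAT, a joint site of HOX and PBX proteins, were in 2 HOX promoters (Hoxa2 and Hoxd11) and in 3.22% of all, and in neither promoter printed here. A match of letters is a description of these windows only.

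HOX reads were a small part of each library: 6968 of 120864303 reads, from 46 in GFP- replicate 3 to 1829 in GFP+ replicate 4. Their sum was 58.4 ± 6.79 CPM in GFP- and 58.4 ± 10.03 CPM in GFP+ (SD, n = 4 each). In all, 13 HOX genes reached 1 CPM in at least 4 libraries and were taken as on: 3 in HOX A (Hoxa7, Hoxa9, Hoxa10), 5 in HOX B (Hoxb2, Hoxb3, Hoxb4, Hoxb6, Hoxb7), 4 in HOX C (Hoxc4, Hoxc5, Hoxc10, Hoxc11) and 1 in HOX D (Hoxd8). Another 16 had reads but stayed below this level, and 2 with bases of their own, Hoxb1 and Hoxd12, had 0 reads, which allows up to 0.0248 CPM over the 8 libraries together. The depth of GFP- replicate 3 sets a limit of its own, since 3 reads there stand for 3.397 CPM. A read there stands for 1.132 CPM, so 1 read is enough to pass the threshold in that library. Without it 12 HOX genes were on, and Hoxc11, with 3 reads there, was not.

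**Figure D1:**
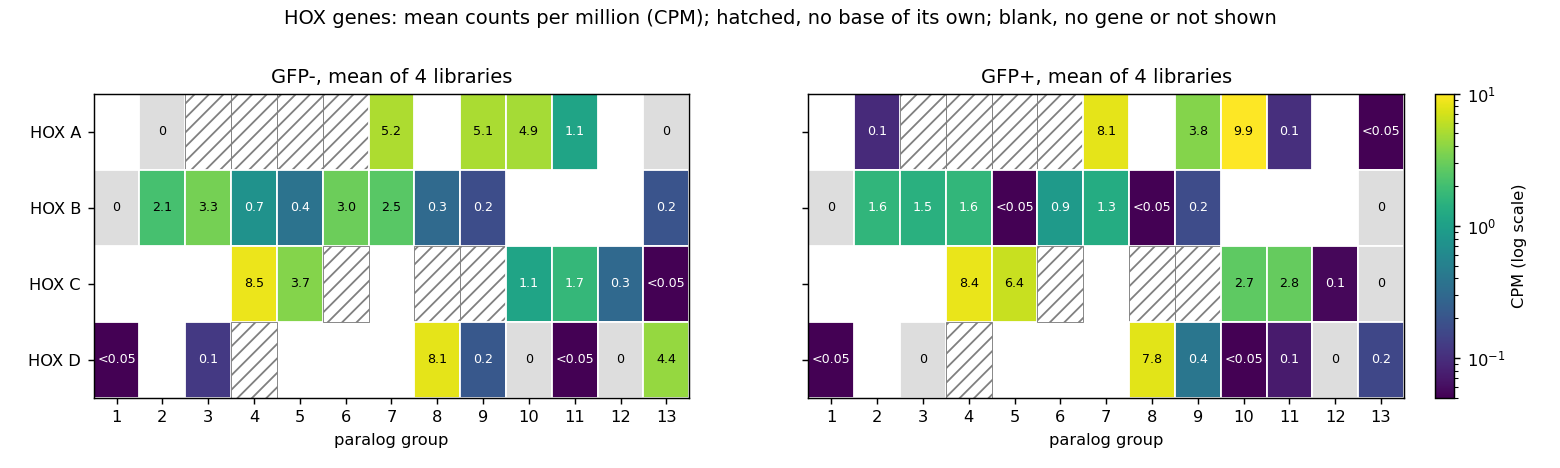
Mean CPM of each HOX gene by cluster (rows) and paralog group (columns), for GFP- (left) and GFP+ (right), with colour on a log scale; grey, no reads in that group; hatched, no base of its own; blank, no such gene or not shown. Genes taken as on stand at groups 7, 9 and 10 in HOX A, 2, 3, 4, 6 and 7 in HOX B, 4, 5, 10 and 11 in HOX C and 8 in HOX D, with Hoxd13 at 13.471 CPM in GFP- replicate 1 and at most 0.505 CPM in GFP+.

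By position, paralog groups 1 to 3 summed to 6.76 ± 2.90 CPM in GFP- and 3.502 ± 2.75 in GFP+, and groups 4 to 8 to 32.4 ± 4.29 and 34.6 ± 9.11, although 6 of the 15 genes of groups 4 to 8 could not be counted. Groups 9 to 13 summed to 19.2 ± 7.76 and 20.3 ± 2.60 CPM. Within these, the most posterior groups 11 to 13 ran from 4.53 to 15.3 CPM in GFP- and from 0.518 to 8.77 CPM in GFP+, with the highest value of each group in replicate 1. The ranges of the groups overlapped at every position. Most of the reads were of groups 4 to 10, and the anterior genes Hoxb1 and Hoxd1 were at or near 0, with 0 and 4 reads in all.

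Compared per kilobase of merged exons, so that genes of different length can be set side by side, the highest levels were those of Hoxc4, a central gene, at 3.33 ± 3.404 CPM per kilobase in GFP- and 3.28 ± 2.62 in GFP+. Hoxd8 stood at 2.94 ± 1.47 and 2.85 ± 1.06, second in GFP- and over all 8 libraries. Hoxa10, a posterior gene known for its part in limb and uterus, stood at 1.498 ± 1.23 and 3.03 ± 0.455, and Hoxa7, a thoracic-level gene, at 1.79 ± 0.598 and 2.82 ± 1.52. In GFP+ Hoxa10 was above Hoxd8, and these 4 did not differ from each other beyond their spread. Averaged over the 8 libraries, the other 9 detected genes were lower, from 0.460 (Hoxb4) to 1.64 (Hoxc5) CPM per kilobase of merged exons. The place of Hoxc4 rested on the replicate 1 libraries: without both of them, a setting chosen after seeing the data, it stood at 1.63 ± 0.346 and 1.98 ± 0.372 CPM per kilobase, below Hoxd8 at 3.36 ± 1.48 and 3.34 ± 0.551 (SD, n = 3 each). Per kilobase of countable span, Hoxc10 was highest at 2.95 CPM per kilobase over the 8 libraries, with Hoxd8 at 2.39 and Hoxc4 at 0.473.

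As a share of each library's HOX reads, HOX A took 29.98 ± 7.67% in GFP- and 38.5 ± 2.94% in GFP+, and HOX B took 22.0 ± 6.96% and 12.8 ± 6.96%. HOX C took 26.1 ± 7.27% and 33.3 ± 14.7%, and HOX D took 22.0 ± 6.46% and 15.5 ± 6.94%. The groups overlapped for all 4 clusters. These shares leave out the genes without a base of their own, 4 of 11 in HOX A and 3 of 9 in HOX C. In HOX D they leave out 1 of 9 and in HOX B 0 of 10. GFP+ replicate 1 stood apart from its group, with 55.17% of its HOX reads in HOX C against 24.32 to 27.21% in the other 3 libraries, and with 3.61% in HOX B. The order of clusters depends on length: per kilobase of countable span, HOX A took 21.8% in place of 34.2% as the mean over all libraries, and HOX D took 28.4% in place of 18.7%.

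**Figure D2:**
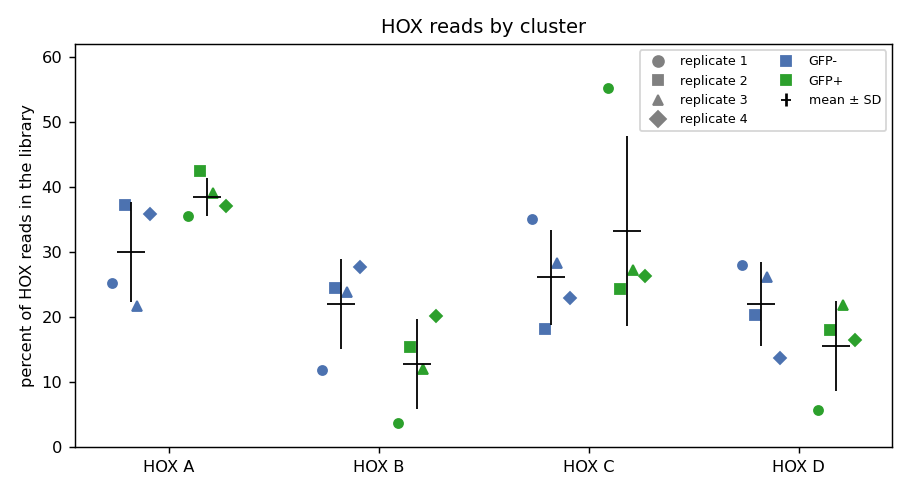
Percent of each library's HOX reads that fell in each cluster; symbols mark the replicate, blue GFP- and green GFP+, bars the mean ± SD of 4 libraries. HOX C in GFP+ replicate 1 (55.17%) lies above all other points, and the ranges of the groups overlap in every cluster.

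The study compared GFP+ with GFP- cells to look into how ADAM12+ cells act on the vessels and stroma of the tumor. The HOX genes were read within that comparison. In the DESeq2 fit over all genes, 1 of the 16 HOX genes with an adjusted p was called at an adjusted p under 0.05, Hoxd13, which was lower in GFP+, and 0 were higher; 2 (Hoxd13 and Hoxb6) had an unadjusted p under 0.05. Over all 15283 genes with an adjusted p, 9.42% were called, 4.66% higher and 4.76% lower in GFP+, so the HOX share is near the background. Of the 16 log2 fold changes, 8 were positive and 8 negative, with a median of -0.03 against -0.01 over all genes tested. For comparison, 11 of 22 pan-fibroblast genes were higher and 0 lower, with a median of 0.64. Another 13 HOX genes had reads but too few for an adjusted p. For 2 of the 16, Hoxa10 and Hoxb6, every library of one group was above every library of the other in normalised counts (reads divided by the library's size factor), as held for 12.3% of all tested genes.

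Hoxd13 (ENSMUSG00000001819, chr2:74668310-74671599, plus strand), the last gene of the HOX D cluster and known for patterning digits and the genital tubercle, had normalised counts of 144, 12.9, 0 and 24.7 in the 4 GFP- libraries and 0, 0.42, 0.77 and 5.37 in the 4 GFP+ libraries. GFP- replicate 1 was far above the rest, and the groups overlapped because GFP- replicate 3, the shallowest library, held no read. The log2 fold change was -4.69 ± 1.29 (SE, adjusted p = 0.00556, DESeq2). On simulated counts DESeq2 made more false calls than its threshold allows, so this adjusted p may be too small. Replicate 1 held 106 of the 171 GFP- reads (61.99%), and without it the log2 fold change was -2.98 with an unadjusted p of 0.0674 in DESeq2 and no adjusted p, since the gene then fell under the filter on low counts. Without GFP+ replicate 4, which held the highest GFP+ value, it was -6.66 (adjusted p = 0.00065, DESeq2). The edgeR quasi-likelihood test on all genes with a read, chosen after seeing the data, gave -4.56 (adjusted p = 0.0123), whereas edgeR and limma with their usual filter removed the gene. The summed melanocyte genes, also lower in GFP+, stood at 5882, 5654, 3178 and 9872 CPM in GFP- replicates 1 to 4. Their part in the Hoxd13 difference was not tested.

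The HOX D genes next to Hoxd13 were at or near 0: Hoxd12 had 0 reads, Hoxd11 had 4 reads and Hoxd10 had 5, each over all 8 libraries. The readings of Hoxd10, with 911 of its 3182 bases countable, and Hoxd11, with 3889 of 7460, are low estimates. The genes of group 13 in the other clusters were also near 0, with 2 reads for Hoxa13, 14 for Hoxb13, all in GFP- replicate 4, and 1 for Hoxc13. The genes most like Hoxd13 in log2(normalised count + 1) over the 8 libraries were Rbl1 (Pearson r = 0.9964), a pocket protein of the cell cycle, Timm13 (0.9905), a mitochondrial import factor, and Gm26658 (0.9852). These correlations describe libraries of unequal depth that include the high GFP- replicate 1, and 15267 genes were compared.

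In the HOX A cluster, Hoxa10 (ENSMUSG00000000938) had normalised counts of 9.5, 70.2, 22.0 and 87.7 in GFP- and 104, 126, 113 and 98.3 in GFP+. All GFP+ libraries were above all GFP- libraries, and GFP- varied more, but the log2 fold change of 1.13 ± 0.60 did not pass the test (adjusted p = 0.265, DESeq2). The low GFP- values, in replicates 1 and 3, were 7 and 2 reads. Hoxa7 had 29.8, 53.8, 54.9 and 63.6 in GFP- and 176, 71.5, 50.7 and 71.1 in GFP+, where replicate 1 was the high value. Its log2 fold change was 0.87 ± 0.51 (adjusted p = 0.339, DESeq2), and 0.16 without both replicate 1 libraries. Hoxa2, with 942 of its 2415 bases countable, had 12 reads, all in GFP+ replicate 4. Hoxa9, which neighbours Hoxa10, had means of 52.5 ± 45.9 and 42.1 ± 11.6, with GFP- replicate 1 at 120.74 and the other GFP- libraries at 21.97 to 37.98. Without both replicate 1 libraries it stood at 0.549 ± 0.134 CPM per kilobase of merged exons in GFP- and 0.730 ± 0.175 in GFP+. Hoxa11, a gene of the forearm and lower-leg level, had 13.6, 15.8, 0 and 14.7 in GFP- and 0, 0, 0 and 4.36 in GFP+, with a log2 fold change of -3.29 ± 1.81 that did not pass (adjusted p = 0.288, DESeq2). Its antisense transcript Hoxa11os is described with the cluster RNAs.

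In the HOX B cluster, Hoxb6 (ENSMUSG00000000690) had 27.1, 36.5, 33.0 and 23.1 in GFP- and 9.72, 7.11, 6.15 and 16.1 in GFP+. Every GFP- library was above every GFP+ library, and the log2 fold change was -1.58 ± 0.64, which did not pass (unadjusted p = 0.0138, adjusted p = 0.107, DESeq2). Hoxb3 had 28.5, 33.7, 33.0 and 34.7 in GFP- and 2.78, 18.4, 10.8 and 30.9 in GFP+, with a log2 fold change of -1.004 ± 0.73 (adjusted p = 0.467, DESeq2). The GFP- replicate 3 values of Hoxb3 and Hoxb6 were 3 reads each. Hoxb7 and Hoxb2 had log2 fold changes of -0.80 ± 0.91 and -0.17 ± 1.01, and Hoxb4 one of 1.10 ± 0.95. Hoxb5, Hoxb8, Hoxb9 and Hoxb13 had between 8 and 29 reads in all.

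In the HOX C cluster, Hoxc4 (ENSMUSG00000075394) had 231, 32.2, 43.9 and 44.6 in GFP- and 225, 63.2, 46.9 and 54.4 in GFP+. The replicate 1 library was the high value of both groups, and the log2 fold change was 0.11 ± 0.73 (adjusted p = 0.963, DESeq2), with a 95% interval of -1.31 to 1.54. With 1 library left out that change ran from -0.70 (without GFP+ replicate 1) to 1.28 (without GFP- replicate 1). Hoxc5 had 5.43, 22.9, 54.9 and 59.4 in GFP- and 114, 45.6, 55.3 and 76.2 in GFP+ (log2 fold change 1.10 ± 0.67, adjusted p = 0.362, DESeq2). Hoxc10, known in hindlimb and lumbar-level tissue, had 0, 19.4, 0 and 23.1 in GFP- and 45.8, 21.8, 33.8 and 21.8 in GFP+. Its log2 fold change was 1.32 ± 1.00 (adjusted p = 0.502, DESeq2), from the 647 bases that could be counted. Without GFP- replicate 4 the log2 fold changes of Hoxc5 and Hoxc10 were 1.69 and 1.93, and without both replicate 1 libraries 0.43 and 0.56, none past the test (adjusted p from 0.197 to 0.816, DESeq2). Hoxc11, the neighbour of Hoxc10, was at 103 in GFP+ replicate 1 and at 4.18 to 19.2 in the other 3 GFP+ libraries, against 5.43 to 33.0 in GFP-. Hoxc12 had 5 reads in all.

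In the HOX D cluster, Hoxd8 (ENSMUSG00000027102) was the single gene on of the 8 that could be counted. It had 48.8, 86.0, 132 and 51.5 in GFP- and 47.2, 99.2, 120 and 79.8 in GFP+. The log2 fold change was 0.24 ± 0.46 (adjusted p = 0.843, DESeq2), with a 95% interval of -0.65 to 1.13. Hoxd9 had 58 reads in 4 libraries and Hoxd3, with 526 of its 36516 bases countable, had 7.

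**Figure D3:**
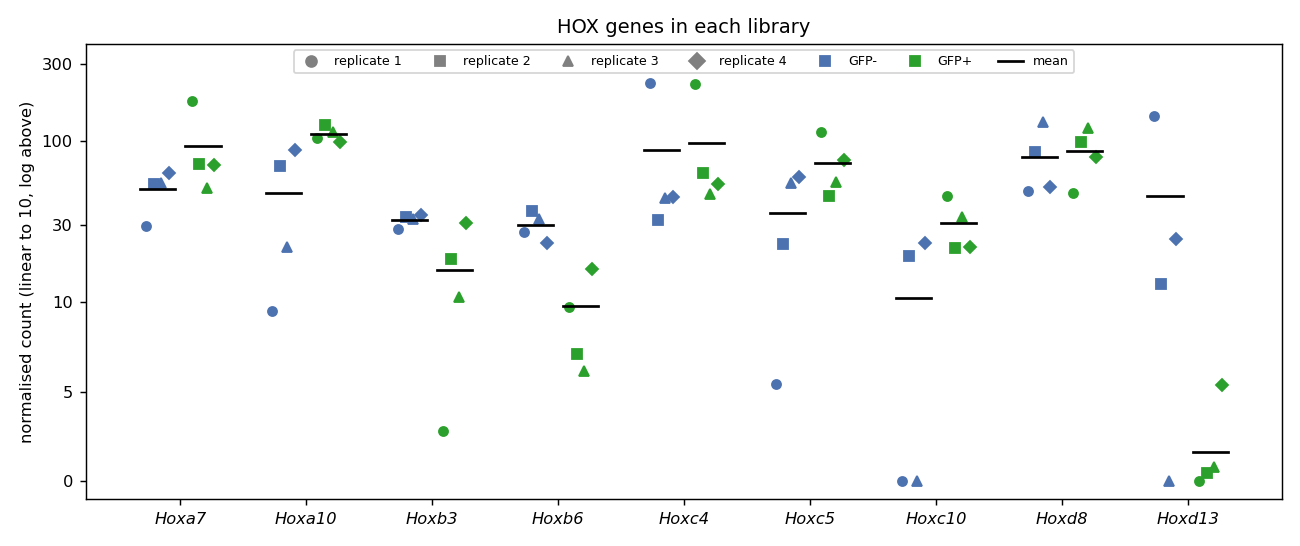
Normalised counts of 9 HOX genes in each library (y axis linear to 10 and log above); symbols mark the replicate, blue GFP- and green GFP+, the line the mean of 4. Hoxa10 and Hoxb6 have groups that do not overlap, Hoxc4 is highest in the replicate 1 library of both groups, and Hoxd13 is above 12 in 3 GFP- libraries and at most 5.37 in GFP+.

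**Figure D4:**
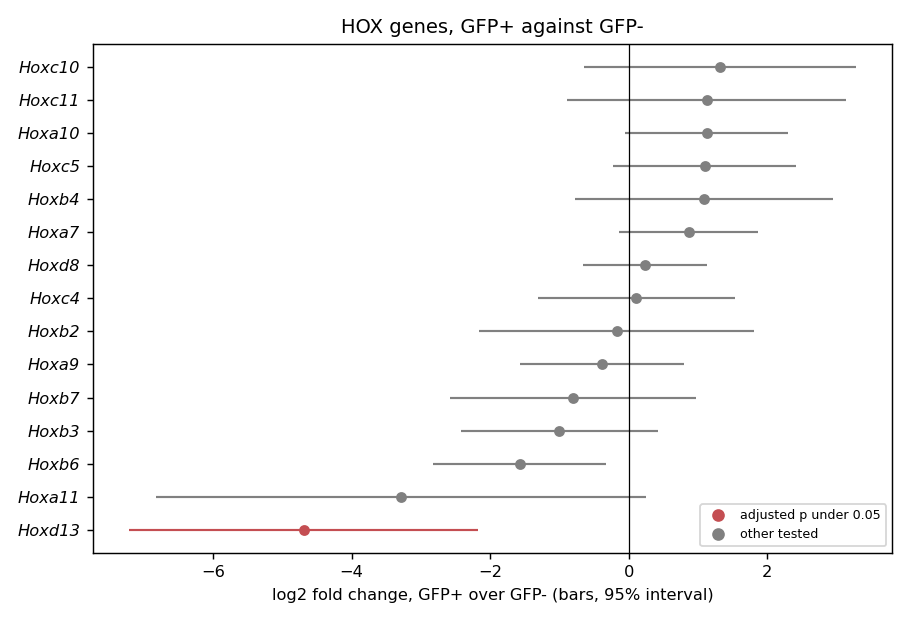
Log2 fold change, GFP+ over GFP-, of HOX genes with an adjusted p, with 95% intervals; red, adjusted p under 0.05. Hoxd13 (-4.69) is the single red point, points lie on both sides of 0, and apart from Hoxd13 and Hoxb6 the intervals shown cross it.

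Transcripts of the clusters that do not code for protein were scarce. Of 18 such genes in the table, 11 had a read and 4 had an adjusted p, of which 1, Hoxa11os, was called, lower in GFP+ (adjusted p = 0.000263, DESeq2), where 4.76% of all tested genes were. Hoxa11os (chr6:52244393-52249799, plus strand) runs antisense to Hoxa11 and had normalised counts of 94.97, 3.58, 10.99 and 3.15 in GFP- and 0 in each of the 4 GFP+ libraries. With 82 reads against none, it was at least 54.3-fold lower in GFP+ in CPM, taking 3 reads over the group as the limit for 0. Without GFP- replicate 1, which held most of its reads, it was at least 9.87-fold lower and had no adjusted p. Of the 17 other fits, 8 gave Hoxa11os an adjusted p and called it in each (0.000224 to 0.00200). Another 7 gave none. Without GFP- replicate 1 and without both replicate 1 libraries, only an unadjusted p was left (0.0300 and 0.0164, DESeq2). With TMM factors in DESeq2, or without GFP- replicate 3 or GFP+ replicate 2, 3 or 4, the unadjusted p was missing too. DESeq2 leaves that p out where it flags an outlying count. In the other 2, edgeR and limma with their usual filter, the gene was removed. Hotairm1, at the 3′ end of HOX A, had means of 13.4 ± 10.8 and 3.71 ± 3.30 and did not pass (adjusted p = 0.495, DESeq2), and Hotair had 15 reads in all.

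Of 24 tested Polycomb genes, 3 were lower in GFP+ and 0 higher, where 4.76% and 4.66% of all tested genes were: Jarid2 (log2 fold change -1.03 ± 0.35), Phc1 (-0.73 ± 0.22) and Asxl1 (-0.59 ± 0.18), with adjusted p of 0.0415, 0.0169 and 0.0164 (DESeq2), and a list median of -0.14. Each lost its call when some single library was left out, with adjusted p up to 0.134 for Jarid2 (GFP- replicate 3), 0.113 for Phc1 (GFP- replicate 1) and 0.0901 for Asxl1 (GFP+ replicate 3). Of 15 trithorax and H3K27 demethylase genes tested, 0 were called, against 9.42% of all tested genes, and the most abundant were Kdm6b (log2 fold change 0.48 ± 0.23, adjusted p = 0.190) and Kmt2d (-0.26 ± 0.16, adjusted p = 0.363, DESeq2). The ParaHox and EVX genes, close relatives of the HOX clusters, had too few reads for an adjusted p, and none reached the detection level.

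Of 12 tested retinoic acid genes, 1 was higher and 1 lower in GFP+, against 4.66% higher and 4.76% lower over all tested genes. Aldh1a1, which makes retinoic acid, rose in GFP+ (861 ± 242 to 2307 ± 938, log2 fold change 1.43 ± 0.33, adjusted p = 0.000548, DESeq2), and Aldh1a3, another enzyme of the same step, was lower (1119 ± 483 to 274 ± 73.1, log2 fold change -2.04 ± 0.33, adjusted p = 9.26e-08, DESeq2). Of 22 tested limb and body-wall patterning factors, 4 were higher and 3 lower, with a list median of 0.45, beside the same 4.66% and 4.76% over all tested genes. The T-box gene Tbx4, a hindlimb factor, had 114, 98.9, 110 and 203 in GFP- and 1.39, 16.7, 27.7 and 24.8 in GFP+ (log2 fold change -2.87 ± 0.60, adjusted p = 8.23e-05, DESeq2). Its neighbour Tbx2 was lower by -3.06 ± 0.48, and the homeobox gene Alx1 by -3.18 ± 0.85. Alx4, a body-wall and limb homeobox gene, had 0, 2.15, 0 and 18.4 in GFP- and 114, 79.1, 83.0 and 123 in GFP+ (log2 fold change 3.92 ± 0.87, adjusted p = 0.000308, DESeq2). Without GFP- replicate 4 the log2 fold change of Alx4 was 6.13 (adjusted p = 2.70e-08), and without GFP+ replicate 4 that of Alx1 was -4.27 (adjusted p = 1.24e-05, DESeq2). Alx1 lost its call in edgeR with the usual filter (adjusted p = 0.0779). En1, which marks a dermal fibroblast lineage of the back, rose by 1.10 ± 0.31, Shox2 by 1.15 ± 0.32 and Twist1 by 0.80 ± 0.18 on the log2 scale. En1 lost its call without GFP- replicate 4 (adjusted p = 0.0586) and Shox2 without GFP- replicate 2 (0.0532, DESeq2). The melanocyte, Schwann cell and keratinocyte sums given above were lower in GFP+ alongside Aldh1a3, Tbx2, Tbx4, Alx1, Hoxd13 and Hoxa11os, and their part in these differences was not tested.

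**Figure D5:**
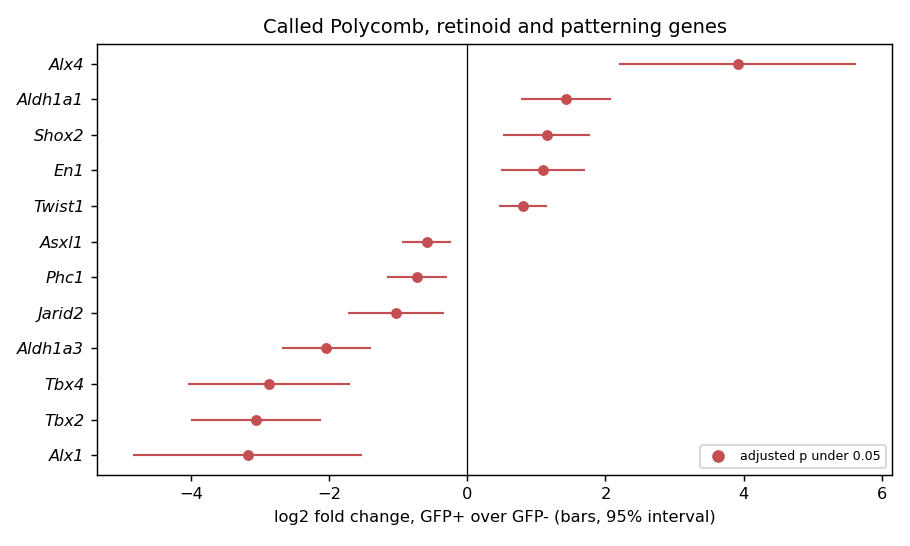
Log2 fold change, GFP+ over GFP-, with 95% intervals, of the called Polycomb, retinoic acid and patterning genes. Alx4 (3.92) is at the top, Alx1, Tbx2 and Tbx4 are at the bottom between -3.18 and -2.87, and the Polycomb genes lie between -1.03 and -0.59.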

How the data were processed

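RNA from sorted cells of MO5 tumors was sequenced in 8 libraries, 4 GFP+ and 4 GFP-, grouped by the labels. The kit was a low-input, strand-keeping one for total RNA. Per the submitters' processing notes and the study's methods, adapters were removed with cutadapt 3.4, reads were mapped to GRCm38 with STAR 2.7.3a and assigned to Ensembl genes with featureCounts 2.0.1 by strand, and tested with DESeq2. The authors deposited raw counts per gene and library, from which all values here start, and a normalised score per library (the raw count divided by a DESeq2 size factor and rounded), which equalled the values computed here within 1. The same table holds the authors' mean, fold change, dispersion and p-value columns for this comparison, which were not used. Per-sample columns left unused: 0.

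All 29043 genes with a count were fitted with DESeq2 1.42.0 (R 4.3.3, two-sided Wald test, group as the only term, default filters, Benjamini-Hochberg adjustment over all genes, calls at an adjusted p under 0.05); 13760 had no adjusted p. Other settings used edgeR 4.0.16, limma 3.58.1, other scaling and filters, the replicate number as a block, and leaving out each library. Counts are of reads without molecular identifiers, so limits for 0 (3 reads) cover counting error only. Expression levels were set per length by merged exons or by the bases of a span that no other gene of the strand covers, from GENCODE M21, which held 53706 of 53801 identifiers (99.82%). The normalised counts were also used for correlations after adding 1. The fits were tested on simulated data, where DESeq2 made more false calls than its threshold allows and more than edgeR or limma, so that DESeq2 calls here are less certain than their adjusted p states. Replicates of a group differed by far more than sampling noise (chi-square per degree of freedom 9.68 to 73.0).

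Named genes are the called HOX genes, the 2 HOX genes with the highest mean normalised count per cluster, those with the largest and smallest fold change at a mean of at least 20, called genes of the partner lists that are reported, or the 2 most abundant where none is called, and the 3 genes most correlated with the called HOX gene. Other HOX genes are given by cluster. The members and lists were chosen with earlier results of these data known. Some results are not reported here.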

Additional observations from a re-analysis of the deposited data

Results flagged for a closer look

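In groups of 4 libraries, 1 value lay far from the other 3 in 7 of 36 groups examined (gap over range above Dixon's 95% critical value), and chance flags about 1 in 20 groups. Normalised counts stood apart for Hoxc4 in GFP- replicate 1 (230.63, others 32.25 to 44.65) and in GFP+ replicate 1 (224.96, others 46.86 to 63.18). In GFP+ replicate 1, Hoxa7 stood at 176.36 (others 50.7 to 71.54) and Hoxc11 at 102.76 (others 4.18 to 19.21). In GFP- replicate 1, Hoxa9 stood at 120.74 (others 21.97 to 37.98). Hoxd13 was at 5.37 in GFP+ replicate 4, with the other 3 GFP+ libraries between 0 and 0.77. HOX C took 55.17% of the HOX reads of GFP+ replicate 1, and 24.32 to 27.21% in the other 3. All but the Hoxd13 value were in a replicate 1 library, and these libraries had reads in 16138 and 16313 genes. The part of this in the values was not tested.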

How the results depend on the processing

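Of the HOX genes, 1, Hoxd13, was called in DESeq2 and in 13 of the 17 other fits (adjusted p 0.00065 to 0.0279). The rest gave it no adjusted p. All 13 include GFP- replicate 1 and share most of their libraries, so they are not separate evidence. The count of called HOX genes was 0 in edgeR and in limma with their usual filter, which removed Hoxd13 and left 14 HOX genes with 0 at an unadjusted p under 0.05. It was 0 with both replicate 1 libraries left out, a setting chosen after seeing the data, where Hoxd13 had no adjusted p (log2 fold change -2.66, unadjusted p = 0.0690, DESeq2). Leaving out 1 library gave 0 to 1, the 0 without GFP- replicate 1. No HOX gene was called higher in any fit. Called genes of the 7 partner lists numbered 14, 8 in edgeR, 7 without both replicate 1 libraries and 9 to 18 with 1 library left out, the 9 without GFP+ replicate 3 or GFP- replicate 4. Called genes were 9.42% of those tested, 5.13% in edgeR, 4.37% in edgeR on all genes with a read, 3.98% without independent filtering and 6.22 to 12% with 1 library left out (the lowest without GFP- replicate 4). The log2 fold change of Hoxc4 (0.11) ran from -0.70 to 1.28 with 1 library left out, and was negative without GFP+ replicate 1 (-0.70) or GFP- replicate 2 (-0.18), 3 (-0.08) or 4 (-0.12). At 5 CPM, 5 HOX genes were on, and 4 at 1 CPM in every library, against 13. Per kilobase of countable span HOX A took 21.8% and HOX D 28.4% of HOX reads. The cause of these shifts was not tested, other than the filters named.

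The deviations of same-numbered libraries of the 2 groups had correlations of 0.0503, -0.158, -0.122 and 0.262. Differently numbered libraries gave -0.177 to 0.171. Spread between libraries can hide a shared tumor, so these values cannot decide whether the numbers pair the libraries. With the replicate number as a block, 1 HOX gene was called, Hoxd13 (log2 fold change -4.16, adjusted p = 0.0157), 18 partner genes and 10.4% of all tested. The block moved the log2 fold changes of Alx4 to 4.94, Hoxa11os to -6.58 and Hoxc10 to 2.18. With it Phc1 lost its call (adjusted p = 0.0746, DESeq2), while the Polycomb genes Jarid2 and Asxl1 kept theirs. Depth limits the reading of every HOX gene under 3.397 CPM in GFP- replicate 3.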
